A study of Mus musculus with 20 samples.

Results

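T cells and their killing machinery were followed through 10 genes: Cd3e, Cd3d, and Cd3g of the T cell receptor complex, the coreceptor genes Cd4, Cd8a, and Cd8b1, the signalling genes Cd5 and Lck, and the granzyme genes Gzma and Gzmb. The genes were taken by symbol from a list drawn up with earlier results of these data known, and all 10 had 1 row each among the 55401 genes of the count table. The data are RNA-seq counts from the heart, kidney, liver, spleen, and small intestine of mice that were WT or Nsun6-KO, with 2 libraries per organ and genotype and 20 in all, made to learn how the loss of the RNA methyltransferase Nsun6 changes gene expression across organs. The KO carries a CRISPR/Cas9 deletion of exons 3 and 4 of Nsun6 in the C57BL/6J background, and all organs came from female mice aged 8 weeks, with no treatment named in the sources. The tissue was dissected, frozen, and ground with no sorting of cells, so a library mixes the cell types of the piece taken, and fewer T cells cannot be told apart from less RNA per T cell. Whether the mice descend from 1 edited founder, and whether libraries of one replicate number share an animal, is not given in the sources used here, so that p-values measure the spread between libraries only. Libraries held between 15897446 (heart KO replicate 1) and 44508197 (liver KO replicate 2) counts.

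A T cell recognises antigen with the T cell receptor, which has no signalling tail of its own and relies on the CD3 epsilon, delta, and gamma chains and on the zeta chain encoded by Cd247. CD4 and CD8 bind the antigen-presenting molecule and bring the kinase Lck to the receptor, and CD5 dampens the signal. CD8 occurs as a heterodimer of its alpha and beta chains (Cd8a and Cd8b1) on conventional T cells of the spleen and lymph nodes, and as a homodimer of alpha chains on many T cells that reside in the epithelium of the gut. Granzymes A and B are serine proteases that killer T cells and NK cells store in granules with perforin, and they are abundant in intraepithelial lymphocytes of the small intestine. In the spleen, T cells fill the sheaths around the arteries of the white pulp.

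In GRCm38, the build of the count table, the CD3 genes form a cluster on chromosome 9: Cd3g at chr9:44969572-44980431 on the minus strand, Cd3d at chr9:44981786-44987339 on the plus strand, and Cd3e at chr9:44998740-45009627 on the minus strand. The start sites of Cd3g and Cd3d point away from each other and lie 1355 bp apart. On chromosome 6, Cd8b1 (chr6:71322788-71337494) and Cd8a (chr6:71373427-71379173) follow each other on the plus strand, and Cd4 lies at chr6:124864692-124888221 on the minus strand. Lck is at chr4:129548344-129573641, Cd5 at chr19:10717116-10739002, Gzma at chr13:113093825-113100981, and Gzmb at chr14:56258838-56262260, all on the minus strand. Counts were summed over all exons of each gene. Of the exon bases, 3.31% of Cd3e overlap exons of Gm48719 on the other strand and 0.854% of Lck overlap Mir8119, and the other 8 genes share none with another gene of the count table.

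Several libraries stood apart in marker genes. Levels are given in CPM, the usual depth-scaled count after TMM normalization over the 20 libraries, and levels of different genes are compared as CPM per kilobase of exon. In the small intestine, replicate 1 of both genotypes carried genes of the distal gut and replicate 2 those of the proximal gut. The ileal bile acid binding protein Fabp6 stood at 6679.9 and 6251 CPM in replicate 1 of WT and KO and at 0.234 and 0.407 CPM in replicate 2. The 8 proximal markers summed to 75.9 and 443 CPM per kb in replicate 1 of WT and KO and to 11435 and 14042 in replicate 2. Smooth muscle markers summed to 955 CPM per kb in small intestine KO replicate 1 and to 101, 168, and 503 in WT replicate 1, WT replicate 2, and KO replicate 2, with all 8 markers detected and Actg2 the most abundant in KO replicate 1. That library also held heart markers at 172 CPM per kb, against 2.20 to 5.08 in the other 3, led by Myl2, with none of the 7 at 0. Small intestine WT replicate 1 held B cell markers at 143 CPM per kb, against 6.14 in WT replicate 2, 0.954 in KO replicate 1, and 27.8 in KO replicate 2, with Cd79b the most abundant in all 4. Peyer patch markers reached 59.2 CPM per kb in it and 9.20 to 23.5 in the others, and its level of Cxcl13, a chemokine of B cell follicles, was 45.3 CPM.

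Spleen WT replicate 2 held liver markers at 1461 CPM per kb, led by Alb, against 3.35, 51.9, and 71.8 in the other spleens, and none of the 7 was at 0. Heart WT replicate 2 held B cell markers at 17.9 CPM per kb, against 5.90 to 6.40 in the other hearts, and Rag1, a recombinase of developing lymphocytes, at 3.85 CPM, against 0 to 0.0954. Its thymus epithelium genes Foxn1 and Psmb11 were at 0. The labels of the small intestine and spleen themselves matched the defining markers of these organs. The 7 small intestine markers summed to at least 6667 CPM per kb in the intestine and at most 3.26 in the spleen, and the spleen factor Tlx1 was at 0 in all intestine libraries and at 8.01 to 15.1 CPM in the spleen. The part of these library differences in the results below was not tested beyond leaving the libraries out.

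The 10 genes had higher medians in the spleen and small intestine than in the liver, kidney, and heart. For the 8 receptor, coreceptor, and signalling genes the median level was highest in the spleen and second in the small intestine, and for both granzymes this order was turned around. With the quasi-likelihood test of edgeR, adjusted by Benjamini-Hochberg over 23159 genes, in a fit of all 20 libraries with the genotypes averaged, all 10 genes were called higher in the spleen than in the liver, kidney, and heart, and all 10 were called higher in the small intestine than in these organs. A gene was called where its adjusted p was below 0.1 and its fold change above 2, and the share of all tested genes called in the same direction was 29.7%, 24.1%, and 27.5% for the spleen and 27%, 23.2%, and 27.7% for the small intestine. The median log2 fold change of the 10 genes was 5.79, 6.11, and 6.82 for the spleen over the liver, kidney, and heart, and 3.57, 4.18, and 5.29 for the small intestine over them, while the medians of all genes lay between 0 and 0.24. The small intestine medians were 2.568, 3.136, and 4.327 without its KO replicate 2, and 3.976, 4.585, and 5.682 without its KO replicate 1. The spleen groups lay above all 3 organs without overlap for each of the 10 genes, as did 34.7%, 27.1%, and 31.8% of all genes. The small intestine groups did so for 7, beside 24.1%, 19.5%, and 25.3% of all genes, because its KO replicate 1 library reached down to the levels of the other organs for Cd4, Cd5, and Cd8b1. For Cd4, WT replicate 2 at 2.34 CPM was also below heart WT replicate 2 at 2.55 CPM. Some calls of these 3 genes were lost under an alternative. Without small intestine KO replicate 2, Cd5 (log2 fold change 1.02) and Cd8b1 (1.70) were no longer called over the liver, Cd4 (0.55) and Cd8b1 (2.17) over the kidney, and Cd4 (0.91) and Cd8b1 (0.83) over the heart. With all libraries these values were 1.92 and 2.98 over the liver, 1.88 and 3.44 over the kidney, and 2.18 and 2.08 over the heart. Other losses came with fold changes close to those of all libraries. Without liver WT replicate 2 or KO replicate 1, Cd5 (1.62 and 1.72) was not called over the liver, nor was Gzmb in the spleen over the liver (1.35 and 1.42, against 1.48 with all libraries). Cd4 was not called over the kidney without small intestine WT replicate 1 (1.34), kidney WT replicate 1 (1.67), or kidney KO replicate 1 (1.77). Cd8b1 was not called over the heart without heart KO replicate 1 (1.99) or in a fit of the 8 libraries of this pair alone (2.16, with an adjusted p of 0.1462 in the edgeR test).

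**Figure D1:**
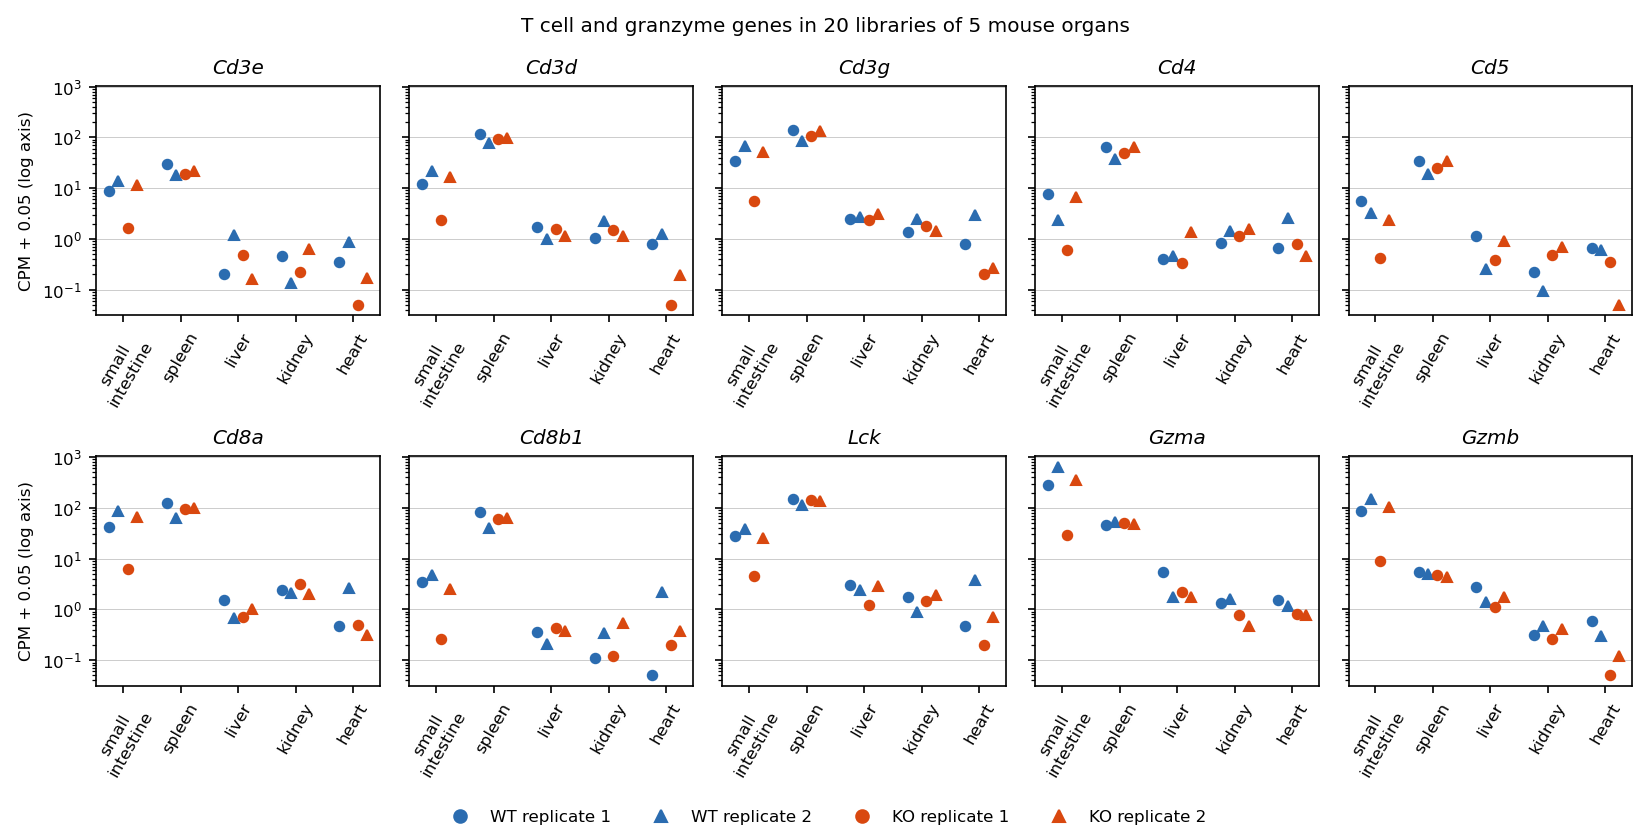
Level of each gene in each library, as CPM + 0.05 on a log axis, by organ. Blue points are WT and orange points KO, circles replicate 1 and triangles replicate 2. The spleen stands above the liver, kidney, and heart for all 10 genes and the small intestine does so for 7, the highest medians of Gzma and Gzmb are in the small intestine, and small intestine KO replicate 1 is the lowest intestinal library for all 10 genes.

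Gzma, a protease that cuts after basic residues, stood at 280.2 and 642 CPM in WT small intestine and at 29.8 and 352 CPM in KO small intestine. In the spleen it stood at 45.5 and 52.6 CPM in WT and at 49.9 and 47.1 CPM in KO. The intestine was above every spleen library in 3 of 4 libraries and below all of them in KO replicate 1. The log2 fold change of the spleen over the small intestine was -2.63 (standard error 0.57), with an adjusted p of 0.001695 in the edgeR test. Without small intestine KO replicate 2 it was -1.23.

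Gzmb, which cuts after aspartate and activates caspases, stood at 85.7 and 152 CPM in WT and at 9.05 and 105 CPM in KO small intestine. In the spleen its level was 5.35 and 4.89 CPM in WT and 4.70 and 4.37 CPM in KO. All 4 intestinal libraries were above all 4 spleen libraries. The log2 fold change was -4.12 (standard error 0.60), the largest in size of the 10 genes after that of Cd8b1, with an adjusted p of 6.6e-05 in the same edgeR test. It was -2.73 without small intestine KO replicate 2.

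The CD3 genes were higher in the spleen. Cd3d stood at 11.9 and 21.5 CPM in WT and 2.35 and 16.3 CPM in KO small intestine, and at 118, 76.8, 94.3, and 95.9 CPM in the spleen libraries WT replicates 1 and 2 and KO replicates 1 and 2. Cd3g stood at 34.7 and 67.0 CPM in WT and 5.65 and 51.6 CPM in KO intestine, and at 142, 83.1, 107, and 134 CPM in the spleen in the same order. Cd3e, the chain without which no receptor reaches the surface, stood at 8.61 and 13.9 CPM in WT and 1.56 and 11.7 CPM in KO intestine, and at 29.4, 18.4, 18.8, and 22 CPM in the spleen. The organs did not overlap for any of the CD3 genes. The log2 fold change of the spleen over the intestine was 2.92 (standard error 0.51) for Cd3d and 1.59 (standard error 0.53) for Cd3g, with adjusted p of 0.000297 and 0.02184 in the edgeR test. For Cd3e it was 1.33 (standard error 0.67) with an adjusted p of 0.107, and the gene was not called. Per kilobase, Cd3d was thus 3.11 to 3.46 times Cd3e in the 4 intestinal libraries and 9.0 to 11.3 times Cd3e in the 4 spleen libraries, 2 ranges that do not overlap.

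Among the coreceptors, Cd8a and Cd8b1 parted. Cd8a stood at 41.8 and 87.1 CPM in WT and 6.08 and 65.0 CPM in KO small intestine, and at 125, 63.7, 96.1, and 98.4 CPM in the spleen. The organs overlapped, and the log2 fold change of 0.98 (standard error 0.59) was not called, with an adjusted p of 0.1827. Cd8b1 stood at 3.45 and 4.64 CPM in WT and 0.217 and 2.48 CPM in KO small intestine, and at 81.9, 40.5, 59.4, and 62.9 CPM in the spleen. Its log2 fold change of 4.69 (standard error 0.87), with an adjusted p of 0.000526, was the largest of the 10 genes, and every spleen library was above every intestinal one. The ratio of Cd8b1 to Cd8a per kilobase was 0.202 and 0.131 in WT and 0.0876 and 0.0936 in KO small intestine, and 1.6 and 1.56 in WT and 1.52 and 1.57 in KO spleen. Per kilobase, the beta chain transcript was therefore below the alpha chain transcript in each intestinal library and above it in each spleen library. In CPM, Cd8b1 was below Cd8a in each spleen library too, so the order within the spleen rests on the division by exon length.

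Cd4, the coreceptor of helper T cells, stood at 7.55 and 2.34 CPM in WT and 0.543 and 6.67 CPM in KO small intestine, and at 64.1, 37.3, 48.7, and 66.1 CPM in the spleen. Cd5 stood at 5.50 and 3.24 CPM in WT and 0.362 and 2.28 CPM in KO small intestine, and at 33.5, 19.3, 24.9, and 33.8 CPM in the spleen. Lck stood at 27.7 and 38.5 CPM in WT and 4.49 and 25.2 CPM in KO small intestine, and at 153, 112, 140.0, and 139 CPM in the spleen. No spleen library overlapped an intestinal one for these genes. The log2 fold changes of the spleen over the intestine were 3.65 (standard error 0.70) for Cd4, 3.51 (standard error 0.69) for Cd5, and 2.59 (standard error 0.59) for Lck, with adjusted p of 0.000628, 0.000719, and 0.002377 in the edgeR test. The ratio of Cd4 to Cd8a per kilobase was 0.0242 to 0.163 in the intestine and 0.457 to 0.606 in the spleen.

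Between the spleen and the small intestine, 6 of the 10 genes were thus called higher in the spleen and 2 higher in the small intestine, beside 25.4% and 24.1% of all genes, or 49.5% in either direction. The spleen libraries lay above the intestinal ones without overlap for 7 genes, as for 28.6% of all genes, and below them for Gzmb, as for 24% of all genes. The counts of 6 and 2 were the same with DESeq2, with a fit of these 8 libraries alone, and without small intestine KO replicate 1, spleen WT replicate 2, and heart WT replicate 2 together. Without small intestine KO replicate 2, 8 genes were called higher in the spleen, now with Cd3e (log2 fold change 2.43) and Cd8a (2.31).

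**Figure D2:**
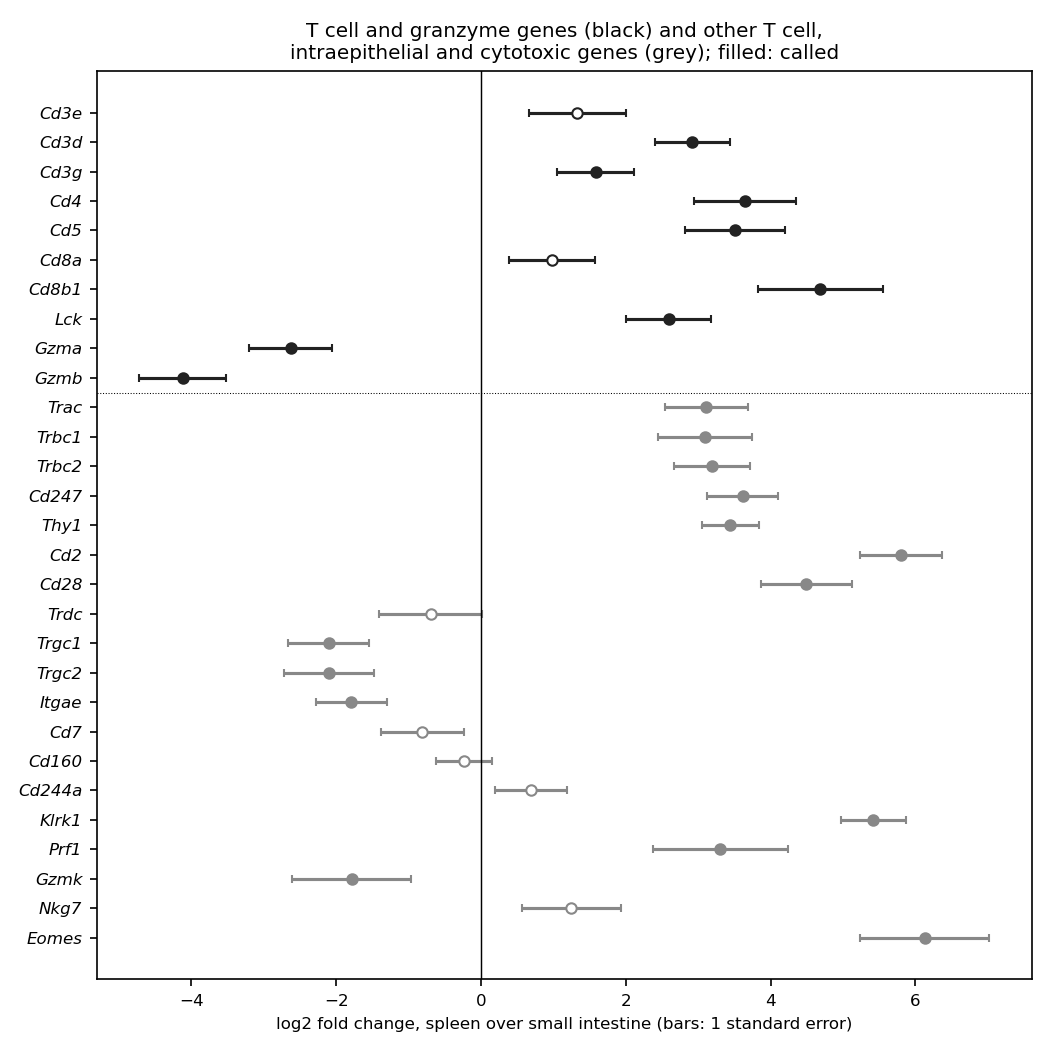
Log2 fold change of the spleen over the small intestine, on the horizontal axis, with 1 standard error, for the 10 genes (black) and for further T cell, intraepithelial, and cytotoxic genes (grey). Filled points were called. Cd3, coreceptor, and signalling genes lie to the right of 0, Gzma (-2.63) and Gzmb (-4.12) to the left together with Trgc1, Trgc2, Itgae, and Gzmk, and Prf1 to the right.

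The ratio of granzyme to CD3 transcripts, the sum of Gzma and Gzmb over the sum of Cd3e, Cd3d, and Cd3g per kilobase, was 17.5 and 20.8 in WT and 10.5 and 15.3 in KO small intestine. In the spleen it was 0.425 and 0.770 in WT and 0.591 and 0.503 in KO. The lowest intestinal value lay above the highest spleen value by an order of magnitude, and the medians were 16.4 and 0.547. Of the summed level of the 10 genes, the granzymes made up 83.8% to 90.6% in the intestinal libraries and 14.9% to 24.8% in the spleen libraries. Small intestine KO replicate 1, which had the lowest level of each of the 10 genes among the intestinal libraries, also had the lowest ratio, so that its granzyme sum stood further below the other libraries than its CD3 sum. Spleen WT replicate 2, with the lowest CD3 sum of the spleens (72.2 CPM per kb, against 89.5 to 115) and the highest granzyme sum (55.7, against 49.0 to 52.9), had the highest ratio of the spleens.

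The ratio of Gzma to Gzmb per kilobase was 4.67 and 6.04 in WT and 4.70 and 4.78 in KO small intestine, and 12.2 and 15.3 in WT and 15.2 and 15.4 in KO spleen. Both granzymes were thus higher in the intestine, Gzmb by the larger factor. In the intestine, the order of the median levels per kilobase was Gzma (314 CPM per kb), Gzmb (66.3), Cd8a (14.7), Cd3g (13.2), Lck (9.04), Cd3d (7.77), Cd3e (2.49), Cd8b1 (2.0), Cd4 (1.12), and Cd5 (0.560). In the spleen it was Cd3d (52.4), Gzma (48.2), Lck (47.6), Cd8b1 (41.2), Cd3g (36.9), Cd8a (26.7), Cd4 (14), Cd5 (5.93), Cd3e (5.0), and Gzmb (3.34). Neighbours such as Cd8a and Cd3g in the intestine, and Cd3d, Gzma, and Lck in the spleen, had ranges over the libraries that overlapped.

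**Figure D3:**
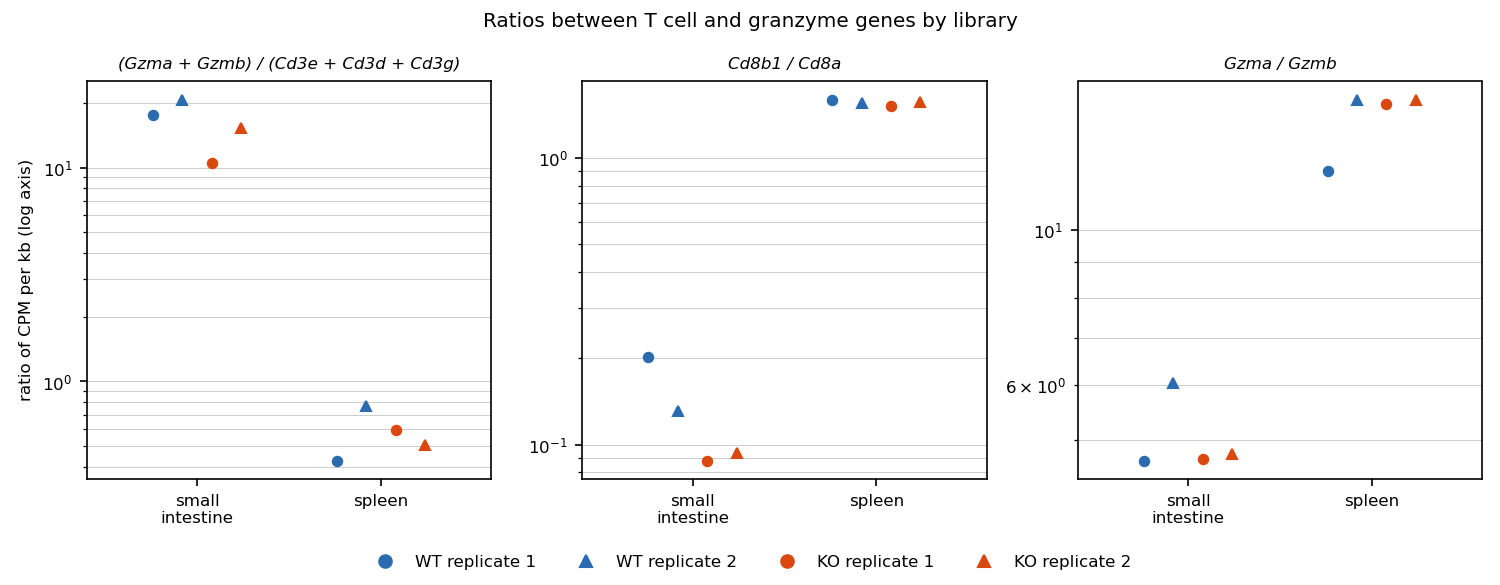
Ratios of levels per kilobase in each library of the small intestine and spleen, on log axes: both granzymes over the CD3 genes (left), Cd8b1 over Cd8a (middle), and Gzma over Gzmb (right). Blue points are WT and orange points KO, circles replicate 1 and triangles replicate 2. The organs do not overlap in any panel, with 10.5 to 20.8 against 0.425 to 0.770 on the left.

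Gzma and Gzmb were higher in one of these organs and Cd3d and Cd3g in the other, and for these 4 genes the 250 bases before the RefSeq start site are shown: Gzma (chr13:113100982-113101231, minus strand), Gzmb (chr14:56262335-56262584, minus strand), Cd3d (chr9:44981536-44981785, plus strand), and Cd3g (chr9:44980432-44980681, minus strand), all from GRCm38.p6. Each runs 5′ to 3′ toward the start site. Capitals mark TGTGGT, or ACCACA as its reverse complement, the core letters bound by RUNX factors, which are known regulators of T cells.
Gzma: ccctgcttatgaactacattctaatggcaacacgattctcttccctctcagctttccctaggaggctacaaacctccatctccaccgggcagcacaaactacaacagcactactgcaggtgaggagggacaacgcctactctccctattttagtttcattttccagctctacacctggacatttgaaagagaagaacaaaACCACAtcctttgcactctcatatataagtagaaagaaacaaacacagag
Gzmb: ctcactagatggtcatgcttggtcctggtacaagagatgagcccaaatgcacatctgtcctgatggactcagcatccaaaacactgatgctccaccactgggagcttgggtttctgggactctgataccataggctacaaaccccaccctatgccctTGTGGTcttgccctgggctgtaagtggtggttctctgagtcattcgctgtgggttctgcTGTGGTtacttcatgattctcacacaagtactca
Cd3d: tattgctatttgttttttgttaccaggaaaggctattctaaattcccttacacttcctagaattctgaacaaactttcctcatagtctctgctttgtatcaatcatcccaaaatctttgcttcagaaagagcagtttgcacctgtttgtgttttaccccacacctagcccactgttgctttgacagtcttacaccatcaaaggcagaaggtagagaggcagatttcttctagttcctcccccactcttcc
Cd3g: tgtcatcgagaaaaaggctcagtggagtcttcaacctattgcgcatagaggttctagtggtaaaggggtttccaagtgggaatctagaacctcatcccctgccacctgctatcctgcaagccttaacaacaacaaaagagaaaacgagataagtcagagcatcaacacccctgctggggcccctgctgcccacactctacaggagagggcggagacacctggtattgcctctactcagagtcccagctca

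On either strand, TGTGGT occurred once in the Gzma window, at position -50 from the start site, and at -93 and -34 in the Gzmb window, and it was not in the windows of Cd3d and Cd3g. Of the 32851 promoter windows of this length in the table, 14% held it. The T-box letters GGTGTG, held by 16.3% of windows, occurred at -92 in Cd3d and in none of the other 3, and the ETS letters GGAAGT, held by 19.7%, occurred at -199 in Cd3d alone of the 4. RefSeq windows were found for 8 of the 10 genes. Among the others, Cd3e, Cd5, and Cd8a had no TGTGGT, and Lck had it in 1 of its 2 windows, at -58. These matches describe the letters only.

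Of 32 further genes of the T cell receptor and its signalling, 29 were called higher in the spleen than in the small intestine and none lower, beside 25.4% of all genes higher and 24.1% lower, and the median log2 fold change was 3.15. The same shares of all genes, 49.5% in either direction, stand behind the counts of the lists that follow. The costimulatory adhesion receptor Cd2 (5.80), the kinase Fyn (2.63), the adaptor Skap1 (3.05), and the surface marker Thy1 (3.45) had the smallest p, with adjusted p of 1.409e-06, 1.507e-06, 3.092e-06, and 6.801e-06 in the edgeR test. The alpha constant gene of the receptor, Trac, stood at 12.8 and 16.2 CPM in WT and 0.724 and 11.6 CPM in KO intestine and at 54.1 to 104 CPM in the spleen. The 3 genes not called were Bcl11b (0.51), Cd7 (-0.81), and Trdc (-0.69), the constant gene of the delta chain.

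The genes of the gamma chain went with the granzymes. Trgc1 stood at 17.3 and 37.9 CPM in WT and 3.95 and 37.6 CPM in KO intestine, and at 5.29 to 5.94 CPM in the spleen. Trgc2 stood at 25.6 and 53.3 CPM in WT and 4.92 and 36.2 CPM in KO intestine, and at 5.89 to 8.27 CPM in the spleen. Their log2 fold changes of the spleen over the intestine were -2.10 (standard error 0.56) and -2.10 (standard error 0.62), with adjusted p of 0.005842 and 0.01099 in the edgeR test, and the integrin Itgae, which anchors T cells to epithelium, had -1.79 (standard error 0.49) with an adjusted p of 0.006843. In small intestine KO replicate 1 both gamma genes were below the spleen levels. Of the 16 genes listed for intraepithelial lymphocytes, these 3 were called higher in the intestine, 7 were called higher in the spleen, among them Cd69 (3.19), Itgb7 (2.90), Tyrobp (2.97), and Fcer1g (2.70), which other leukocytes also express, and 6 were not called. The ratio of Trdc to Trac per kilobase was 0.115 to 0.508 in the intestine and 0.0124 to 0.0257 in the spleen.

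Among 23 further granule genes, 17 passed the filter on low counts, 10 were called higher in the spleen, and 6 were not called. Gzmk alone was called higher in the intestine, as Gzma and Gzmb were, at a log2 fold change of -1.79 (standard error 0.82), its adjusted p being 0.08408 in the edgeR test. Prf1, the pore protein perforin through which granzymes enter a target, stood at 1.03 and 1.83 CPM in WT and 0 and 1.22 CPM in KO intestine and at 7.49 to 12 CPM in the spleen, and its log2 fold change was 3.31 (standard error 0.93), with an adjusted p of 0.008478. The receptor Klrk1 (5.42), the fusion protein Stx11 (3.54), the granzyme inhibitor Serpinb9 (2.54), and the transcription factor Eomes (6.13) had the smallest p among those higher in the spleen, each with an adjusted p of at most 0.0001092. All 8 NK cell markers were called higher in the spleen, with Klrb1c, Klrc2, Ncr1, and Klra8 at log2 fold changes of 4.37, 5.62, 5.07, and 8.84. In the intestine NK markers summed to 0.547 to 2.53 CPM per kb and 1 or 2 of the 8 were at 0 in each library, against 32.8 to 48.2 and none at 0 in the spleen. B cell markers (10 of 10), dendritic cell markers (8 of 8), and monocyte and macrophage markers (9 of 10) were also called higher in the spleen.

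Likeness to a gene was measured over the 20 libraries as Pearson's r of log2 CPM among 22772 genes. The genes most like Cd3e were Cd96 (0.971), Lat (0.956), Lck (0.954), Igkv6-23 (0.954), and Cd3g (0.951). Those most like Cd8a were Apol7c (0.983), the immunoglobulin kappa variable genes Igkv6-32 (0.982), Igkv12-44 (0.978), and Igkv6-15 (0.976), and Cst7 (0.973). Gzma was followed by Trgc1 (0.974), Trgc4 (0.970), Cd7 (0.970), Neurl3 (0.966), and Apol7b (0.966), and Gzmb by Trgc1 (0.963), Ly75 (0.953), Tapbpl (0.950), Gzma (0.945), and Slc35c1 (0.941). The libraries behind these values share organs and depth, and the values are a description.

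In the liver, kidney, and heart the levels were low, with 0 to 138 counts per gene and library. Every gene had at most 5.33 CPM in every library of these organs, the value of Gzma in liver WT replicate 1. In the heart, Cd3d, Cd3e, and Gzmb had 0 counts in KO replicate 1, Cd5 in KO replicate 2, and Cd8b1 in WT replicate 1, each of which allows up to 3 counts. The granzymes were the genes that stood out in the liver. Gzma stood at 5.33 and 1.68 CPM in WT and 2.14 and 1.68 CPM in KO liver and Gzmb at 2.77, 1.37, 1.05, and 1.72 CPM, and both were called higher than in the kidney and the heart, beside 13.6% and 19.8% of all genes. Cd3d and Cd3g were called higher in the liver than in the heart and, with Cd8a, higher in the kidney than in the heart, beside 19.9% of genes for the latter pair. None of the 10 genes was called lower in the first organ of these 3 pairs. The calls of Gzmb in the liver, of Cd3d, and of Cd3g in the liver over the heart were made with each library left out in turn. Gzma in the liver, at log2 fold changes of 1.56 over the kidney and 1.41 over the heart with adjusted p of 0.0584 and 0.07126 in the edgeR test, was close to the threshold. It was not called over the kidney without liver WT replicate 1, the library with its highest level (1.04), nor without liver KO replicate 1, kidney WT replicate 1, kidney WT replicate 2, or kidney KO replicate 2 (1.40 to 1.64). Over the heart it was not called without liver WT replicate 1 (0.96), liver KO replicate 1, or any 1 of the 4 hearts (1.39 to 1.56). In the kidney over the heart, Cd3g (1.46) and Cd8a (1.66) had adjusted p of 0.08278 and 0.07195 in the edgeR test, and each lost its call in 6 of the 8 fits that left out a library of these organs. Their log2 fold changes were then 1.19 to 1.74 and 1.34 to 1.83. The exceptions were kidney WT replicate 1 and heart WT replicate 2 for Cd3g, and kidney KO replicate 2 and heart WT replicate 2 for Cd8a.

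The targeted gene itself was not lower in every KO library. Nsun6 stood at 9.63 and 6.09 CPM in WT and 9.67 and 5.16 CPM in KO small intestine, at 6.10 and 4.39 CPM in WT and 4.04 and 6.62 CPM in KO spleen, and at 6.95 and 6.70 CPM in WT and 6.0 and 5.53 CPM in KO heart. In the liver it stood at 7.23 and 4.79 CPM in WT and 3.95 and 4.54 CPM in KO, and in the kidney at 5.57 and 5.98 CPM in WT and 3.95 and 3.33 CPM in KO. The genotypes overlapped in the small intestine and spleen and not in the liver, kidney, and heart, and Nsun6 was called in none of the organs. The counts sum all exons of the gene and 2 exons are deleted, so this total cannot serve to test the genotype labels, and the groups below are those of the labels.

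None of the 10 genes was called between KO and WT in any organ. With the edgeR test fitted on the 4 libraries of each organ and adjusted over all genes tested, 10 genes could be tested in the small intestine and spleen, 8 in the kidney, and 7 in the liver and heart, and the calls over all genes came to 0% in the small intestine, kidney, and heart, 0.0509% in the liver, and 0.223% in the spleen. DESeq2 also called none of the 10, and over all genes it called 208 in the spleen, 53 in the liver, 51 in the small intestine, 3 in the heart, and 0 in the kidney. An unadjusted p below 0.05 was reached by none of the 10 but Cd3d and Cd3g in the heart, where 0.703% of all genes reached it. Both passed the heart filter through their WT libraries alone, and nothing is read from this count.

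In the small intestine all 10 genes had a negative log2 fold change, from -0.49 (standard error 1.31) for Cd4 to -1.76 (standard error 1.03) for Cd5, with a median of -0.99 against 0.00 for all genes. The smallest p was 0.1537, for Cd5 in the edgeR test, with an adjusted p of 0.9999. For Cd5, Cd8b1, and Lck, 3 of 10 genes, the KO libraries were both lower than either WT library, as for 9.52% of all genes. Cd8b1 passed the filter on low counts by its WT libraries alone, so that its lower KO value is in part set by the filter. Without the filter all 10 log2 fold changes were negative too, with a median of -0.98. KO replicate 1 stood at 6.30% to 16.2% of the median of the other 3 intestinal libraries, gene by gene, and KO replicate 2 at 70.3% to 285%. Without KO replicate 1 the median log2 fold change was -0.12, with 3 genes higher and 7 lower, and without KO replicate 2 it was -3.41. KO replicate 2 lay between the WT libraries for Gzma, with 352 CPM against 280.2 and 642 CPM.

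Since replicate 1 of the intestine carried distal and replicate 2 proximal genes, KO and WT can also be set side by side within a region of the gut. In the distal libraries all 10 genes were lower in KO, at 6.30% to 19.7% of the WT level. In the proximal libraries 9 of 10 were lower in KO, at 53.4% to 83.8% for all but Cd4, which stood at 285% of the WT level. With the replicate number as a block, which here separates the gut regions, the median log2 fold change of KO over WT moved from -0.99 to -1.64 and all 10 values stayed negative. None was called in this blocked edgeR fit, where Gzma (-2.10) and Lck (-1.66) had unadjusted p of 0.04278 and 0.04695 and adjusted p of 0.8456 and 0.8565. The distal KO library is the one with high smooth muscle and heart markers, and its B cell markers summed to 0.954 CPM per kb, against 143 in the distal WT library. Of the 32 further T cell genes 31 passed the filter in the intestine, and all 31 had a negative log2 fold change, with Cd27 (-1.97) and Themis (-2.14) at the smallest p and none called by the edgeR test. In the same fit all 8 smooth muscle markers had a positive one and an unadjusted p under 0.05, as had 1.77% of all genes, and none was called, with Myh11 at 2.13 and Lmod1 at 1.73. The part of tissue composition in the lower T cell genes was not tested.

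**Figure D4:**
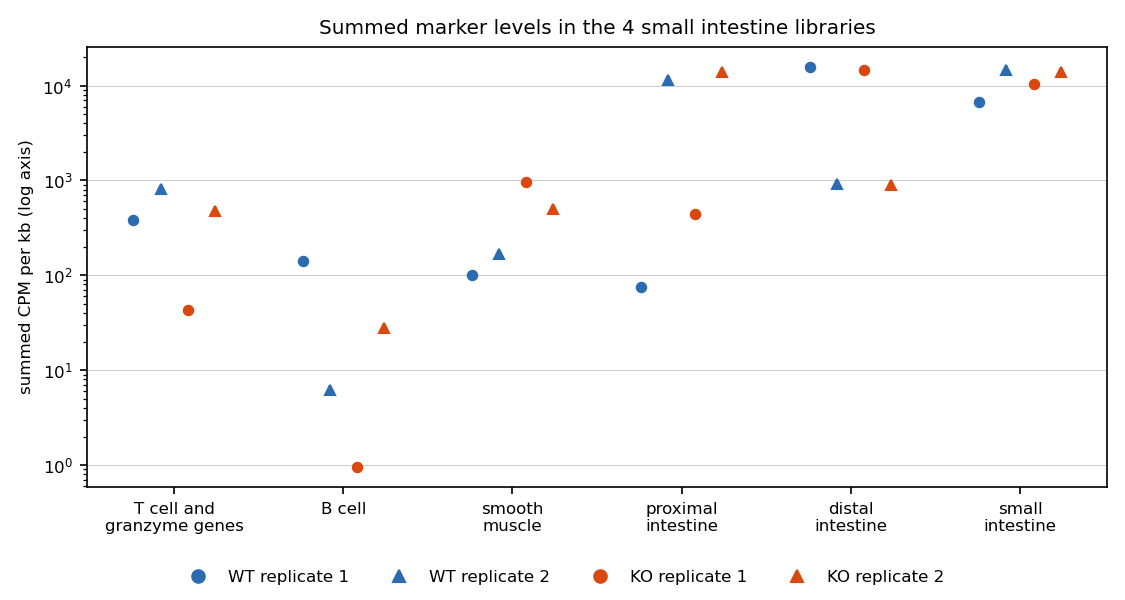
Summed levels, in CPM per kb on a log axis, of the 10 genes and of 5 marker lists in the 4 small intestine libraries. Blue points are WT and orange points KO, circles replicate 1 and triangles replicate 2. KO replicate 1 has the lowest sum of the 10 genes and of the B cell markers (0.954) and the highest of the smooth muscle markers (955), and circles and triangles change places between the proximal and distal markers.

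In the spleen the direction of the genes between genotypes depended on the library. Log2 fold changes ran from -0.18 (standard error 0.24) for Cd3e to 0.23 (standard error 0.28) for Cd4, 8 of the 10 were positive, and the median was 0.07. The smallest p was 0.4372, for Cd4, with an adjusted p of 0.9999 in the edgeR test. The standard errors had a median of 0.26 in the spleen and 1.12 in the small intestine, and the spleen values are the more precise. Gzmb was the 1 gene whose groups did not overlap, with 5.35 and 4.89 CPM in WT and 4.70 and 4.37 CPM in KO, and 17.3% of all genes were lower in KO without overlap. With WT replicate 2 left out, which held liver transcripts and the lowest levels of 8 of the 10 genes, the sign turned negative for Cd3d, Cd3g, Cd4, Cd5, Cd8a, Cd8b1, and Lck, and the median was -0.16. With KO replicate 2 left out the median was -0.03, with 3 of the 10 positive, and with WT replicate 1 left out it was 0.44, with 8 positive. Set side by side by number, KO replicate 1 was below WT replicate 1 for 9 of the 10 genes (median 76.3% of the WT level) and KO replicate 2 below WT replicate 2 for 2 (median 140%). The erythroid genes of the same libraries summed to 14051 and 19225 CPM per kb in WT and 30930 and 36899 in KO, and Slc4a1, Epb42, and Alas2 were called higher in KO, with log2 fold changes of 1.57, 1.67, and 1.34. Their part in the T cell values was not tested.

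In the heart 7 of the 10 genes passed the filter on low counts, and 5 of them, Cd3d, Cd3g, Cd5, Cd8a, and Lck, passed by their WT libraries alone, so that their lower KO values are in part set by the filter. Without the filter all 10 genes had a negative log2 fold change, with a median of -2.30, and none was called. Cd3d was counted 12 and 44 times in WT replicates 1 and 2 and 0 and 6 times in KO replicates 1 and 2, and its log2 fold change was -3.35 (standard error 1.10), with an adjusted p of 1 in the edgeR test. Cd3g was counted 12 and 104 times in WT and 2 and 9 times in KO. Its log2 fold change was -3.26 (standard error 0.92), with an adjusted p of 1 in the same edgeR test. The KO libraries lay below the WT libraries without overlap for 6 of the 10 genes, as for 8.89% of the 27983 genes with a count in the heart. The highest level was in WT replicate 2, the library with B cell genes and Rag1, for 7 of the 10. Without it 5 genes could be tested, among them Cd3d at -2.97, Cd3g at -1.97, and Lck at -0.01.

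In the kidney Cd5 stood at 0.177 and 0.0424 CPM in WT and 0.427 and 0.644 CPM in KO, which are 6, 1, 12, and 18 counts. Its log2 fold change was 2.16 (standard error 1.01), with an adjusted p of 0.9999 in the edgeR test, and ran from 1.57 (WT replicate 2 left out) to 3.54 (WT replicate 1 left out). Gzma went the other way, with 44 and 36 counts in the WT and 20 and 12 counts in the KO libraries. Its log2 fold change was -1.30 (standard error 0.64), with an adjusted p of 0.9999 in the same edgeR test, and ran from -1.70 to -0.95 with 1 library left out. Neither gene's groups overlapped, beside 10% of the 28514 genes with a count in the kidney higher and 9.95% lower in KO without overlap, and Cd5 passed the filter by its KO libraries alone. In the liver the log2 fold change farthest from 0 was that of Gzma, -0.87 (standard error 0.56), which turned to 0.17 with WT replicate 1 left out, the library with 5.33 CPM. Of the 10 genes, Cd8b1 alone had liver groups that did not overlap in CPM, with 8 and 3 counts in the WT and 8 and 9 counts in the KO libraries, too few for the filter, and 13.8% of the 25602 genes with a count in the liver were higher in KO without overlap.

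**Figure D5:**
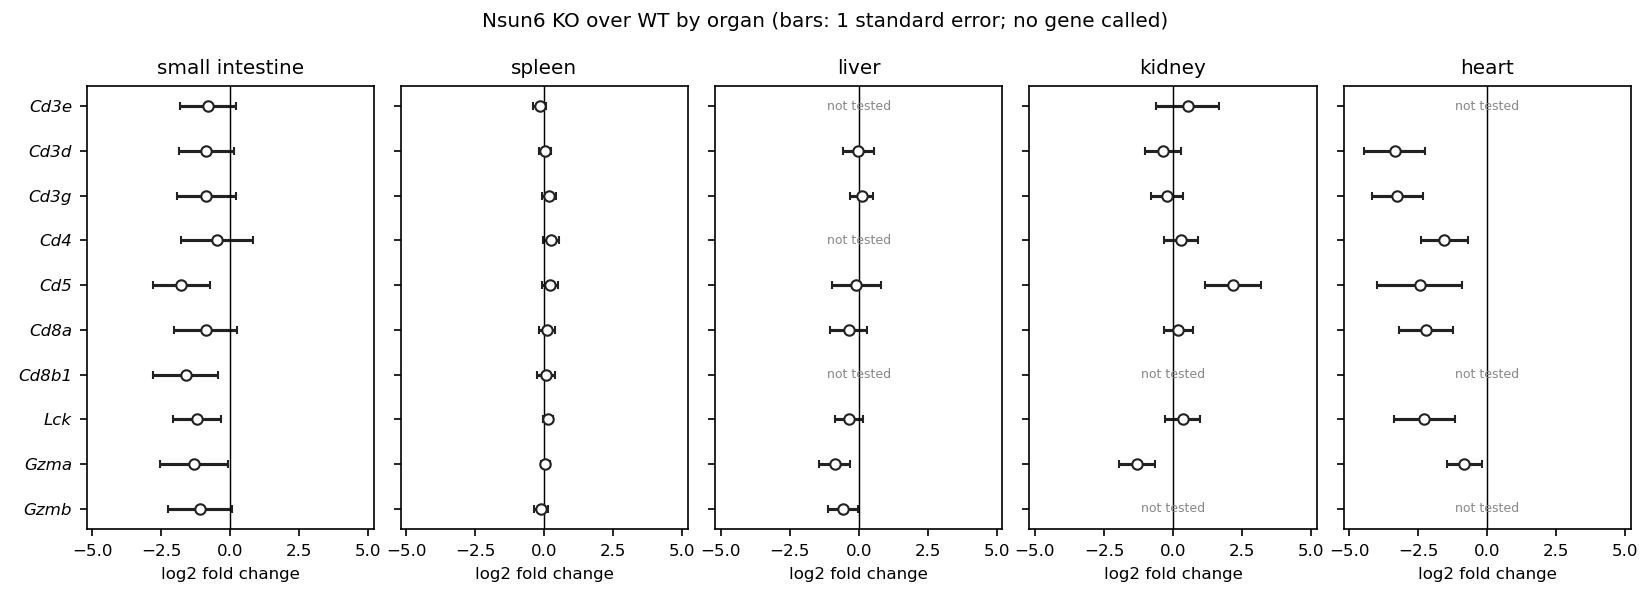
Log2 fold change of KO over WT in each organ, on the horizontal axes, with 1 standard error, for the genes that passed the filter on low counts. Open points were not called, as none was. Points lie below 0 in the small intestine and heart, with wide errors, and near 0 with narrow errors in the spleen.

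Averaged over the 5 organs, all 10 log2 fold changes were negative and their median was -0.74, while the median of all genes was 0.00. An unadjusted p below 0.05 was reached by 4 of them, as by 3.26% of all genes: Cd3d at -0.90 (standard error 0.35), Cd3g at -0.81 (standard error 0.36), Gzma at -0.85 (standard error 0.37), and Gzmb at -0.96 (standard error 0.43). None was called in the edgeR test, where every adjusted p was 1. With 1 library left out, Cd3d ran from -1.82 (without heart KO replicate 2) to -0.73 (without small intestine KO replicate 1), and Cd3g from -1.31 (without small intestine KO replicate 2) to -0.55 (without heart WT replicate 2). Gzma ran from -1.41 (without small intestine KO replicate 2) to -0.65 (without liver WT replicate 1), and Gzmb from -1.70 (without heart KO replicate 2) to -0.78 (without small intestine KO replicate 1). Leaving out heart KO replicate 2 sets the heart KO group to 1 library at 0 counts for Cd3d and Gzmb. The values of -1.82 and -1.70 are therefore no bounds. The median of the 10 was -1.25 without small intestine KO replicate 2 and -0.49 without heart WT replicate 2. Without small intestine KO replicate 1, spleen WT replicate 2, and heart WT replicate 2, the median was -0.40 and 2 of the 10 values were positive. A test of whether the KO effect differed among organs gave an adjusted p of 1 for each gene, with the smallest unadjusted p at 0.08428 for Cd5, and 0% of all genes were called. Without the low-count filter 5 of the 10 had an adjusted p below 0.1 in this edgeR test, beside 2.66% of all genes. The difference of the KO effect between the small intestine and the spleen was called for none of the 10 either, with unadjusted p from 0.1563 for Cd5 upward. All 10 values of this difference were negative, with a median of -0.93, or -1.72 with the replicate block. With small intestine KO replicate 1 left out the median was -0.07 and 2 values were positive, and with KO replicate 2 left out it was -3.51. Without the same 3 libraries as above the direction turned, with a median of 0.14 and 6 values positive.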

How the data were processed

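The 20 RNA-seq libraries of 5 organs were grouped by the organ, genotype, and replicate number of the labels. The authors trimmed reads with cutadapt, mapped them with HISAT2 2.1.0 (mm10 in the submitters' processing notes, GRCh38 in the methods), counted exons of Ensembl GRCm38 genes with featureCounts 2.0.1, and deposited raw counts without normalization, with the exon length of each gene in base pairs. The methods give reverse-stranded counting of read pairs, and the stored command does not. Between 54.9% and 59.8% of counts from 10 to 50 were even, so mates may have been counted separately. Counts and limits cover counting error only, and p-values measure the spread between libraries.

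Counts were analysed with edgeR 4.0.16 in R 4.3.3 (TMM, filterByExpr, robust quasi-likelihood test, Benjamini-Hochberg adjustment), by organ for genotype and in 1 model of 20 libraries for organs, the mean KO effect, and the interaction. A standard error is the log2 fold change over the square root of F. Likeness used a prior count of 2. DESeq2 1.42.0, other size factors, no filter, a replicate block, other sets of libraries, and each library left out were alternatives. The fits were tested on simulated counts. Python 3.11.15 with pandas 2.3.3 and matplotlib 3.10.9 made summaries and figures. Members, lists, and the rule for named genes were chosen with earlier results of these data known. The rule names all 10 genes and, of each further list, up to 4 called genes per direction by p, or the 2 with the smallest p. Trac, Prf1, Trdc, Bcl11b, Cd7, Fabp6, Cxcl13, Rag1, Foxn1, Psmb11, and Tlx1 were added after their values were seen.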

Additional observations from a re-analysis of the deposited data

Results flagged for a closer look

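Over the 4 libraries of each organ, 52 sets of values (the level of each gene in each organ, and the granzyme to CD3 ratio in the small intestine and spleen) were compared with Dixon's 95% critical value for the gap of 1 library to the nearest other. Chance flags about 1 in 20 sets, and 6 were found. In 4 of them heart WT replicate 2 was far above the other hearts: Cd4 at 2.55 CPM, Cd8a at 2.63 CPM, Cd8b1 at 2.13 CPM, and Lck at 3.82 CPM. In the liver, Gzma stood apart in WT replicate 1 at 5.33 CPM and Cd4 in KO replicate 2 at 1.32 CPM. No intestinal or spleen value stood apart by this measure. It was taken on CPM with both genotypes together, and can miss a low library where the others spread widely. Small intestine KO replicate 1 was not flagged, at 6.30% to 16.2% of the median of the other intestinal libraries over the 10 genes. Heart WT replicate 2 is also the heart library with the highest B cell marker sum and the highest level of Rag1. Whether either is related to the 4 values was not tested.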

How the results depend on the processing

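Between the spleen and small intestine, the 2 granzyme calls were made under every alternative run, and the calls higher in the spleen numbered 6, or 8 without the low-count filter, with the replicate block, or without small intestine KO replicate 2. Of all genes, 32.9%, 49.3%, and 45.5% were called in either direction in those alternatives, in this order, against 49.5% in the main fit. None of the 10 genes was called between KO and WT within an organ under any alternative. The pairing of replicate numbers was checked by the correlation of same-numbered libraries' deviations from their group means, which was 0.570 for small intestine, 0.365 for heart, 0.126 for kidney, 0.0376 for liver, and 0.00707 for spleen. In the small intestine the number separates distal from proximal libraries in both genotypes. With 2 pairs per organ and no label that ties a number to an animal, the block stayed an alternative. It moved the median log2 fold change of KO over WT from -0.99 to -1.64 in the small intestine, and that of the intestinal against the splenic KO effect from -0.93 to -1.72. The replicate block moved the calls over all genes from 8 to 20 in the liver, from 42 to 43 in the spleen, and from 0 to 6 in the heart.

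Calls lower in the liver than in the kidney numbered 0, but 2 without the filter. They numbered 1 each with the replicate block, in a fit of these 8 libraries, and without the 3 libraries that stand apart. Of all genes, 23.4%, 35.0%, 40.0%, and 33.3% were called in either direction in these alternatives, in this order, against 34.7% in the main fit. Leaving out the 3 libraries was chosen after seeing the data. It also gave 7 calls higher in the liver than in the heart in place of 4, beside 40.0% of all genes in either direction against 44.5%. Without the filter, 1 gene was called lower in the kidney than in the heart, where 25.6% of all genes were called in either direction, and 5 had an adjusted p below 0.1 for the interaction, as had 2.66% of all genes against 0%. In one fit of all libraries, Cd3d and Gzma in the spleen turned to -0.026 and -0.0094. The median granzyme to CD3 ratio in the small intestine and spleen was 6.18 and 0.226 without division by length, 2.80 and 0.0344 with Gzmb alone, and 154 and 10.4 over Cd3e alone. The causes were not tested.

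With each replicate left out, KO log2 fold changes in the small intestine ranged from -2.97 to 0.033 for Cd3e, -3.29 to 0.0029 for Cd3g, and -3.30 to 0.59 for Cd4, lowest without KO replicate 2. The other genes stayed negative there, with ranges as wide. These were -2.94 to -0.051 for Cd3d, -3.70 to -0.96 for Cd5, -3.53 to -0.0058 for Cd8a, and -4.31 to -0.72 for Cd8b1. For Lck, Gzma, and Gzmb they were -3.00 to -0.41, -4.07 to -0.41, and -3.83 to -0.20. In the spleen the KO log2 fold changes ranged from -0.45 to 0.16 for Cd3e, -0.23 to 0.32 for Cd3d, -0.16 to 0.55 for Cd3g, -0.082 to 0.64 for Cd4, -0.11 to 0.63 for Cd5, -0.30 to 0.62 for Cd8a, -0.35 to 0.61 for Cd8b1, -0.059 to 0.33 for Lck, and -0.10 to 0.16 for Gzma, and in the liver from -1.45 to 0.17 for Gzma. They ranged from 1.57 to 3.54 for Cd5 and -1.70 to -0.95 for Gzma in the kidney, and from -7.45 to -2.76 for Cd3d and -3.88 to -1.97 for Cd3g in the heart, where the value of -7.45 sets a group of 1 library at 0 counts and is no bound. The lone library of a group is then assumed to vary like the others. Calls higher in the liver than in the kidney ranged from 1 to 2, beside 29.7% to 35.1% of all genes called in either direction in these fits. Calls higher in the kidney than in the heart ranged from 1 to 4, beside 32.8% to 36.8% of all genes called in either direction. For the mean of organs, and for the KO effect in the small intestine against the spleen, leaving out 1 library also moved the calls lower in KO. A group of 1 library gives no spread of its own, so those calls are not read. The median log2 fold change of the 10 genes ran from -1.25 to -0.49 for the mean of organs. For the small intestine against the spleen it ran from -3.51, without small intestine KO replicate 2, to -0.07, without KO replicate 1. Calls over all genes within an organ also moved with 1 library left out: from 0 to 2938 in the kidney without WT replicate 1 and 444 without WT replicate 2, from 8 to 205 and 193 in the liver without WT replicates 1 and 2, from 42 to 371, 271, 21, and 0 in the spleen without WT replicates 1 and 2 and KO replicates 1 and 2, and from 0 to at most 22 in the heart, without WT replicate 1. Counts under 10 per library in the heart, liver, and kidney limit what can be seen there.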

Other observations

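Gzmm, a further granzyme gene chosen here after its values were seen, had its highest levels in the heart. It stood at 14.4 and 9.17 CPM in WT and 17.6 and 8.63 CPM in KO heart, or 234 to 362 counts per library. In the spleen it stood at 0.751 to 1.48 CPM, in the small intestine at 0.145 to 0.585 CPM, and in the liver and kidney at 0.105 to 0.640 CPM. All 4 hearts were above all other libraries, and replicate 1 of each genotype was above replicate 2. Gzmd, Gzme, Gzmf, Gzmg, and Gzmn had 0 counts in every library.

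Genes listed for mast cells were called in both directions. Mcpt1 and Mcpt2, proteases of mucosal mast cells, were called higher in the small intestine than in the spleen, with log2 fold changes of the spleen over the intestine of -4.92 and -3.41. Cma1 (6.13), Mcpt4 (4.87), Ms4a2 (3.38), and Cpa3 (1.98) were called higher in the spleen by the edgeR test. Of the 9 genes listed, 5 were called higher in the spleen, 2 were called higher in the intestine, and 2 were not called, beside 25.4% of all genes higher and 24.1% lower in the spleen.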
